A study of Homo sapiens with 4 samples.

Results

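The 9 genes described here encode histone variants and are grouped apart from the replication-dependent histone genes. They are the H3.3 genes H3-3A and H3-3B, the H2A.Z genes H2AZ1 and H2AZ2, and the macroH2A genes MACROH2A1 and MACROH2A2. The others are H2AX, H2AJ and the linker histone gene H1-10. The 9 genes were taken as a list of symbols, not by their values. All 9 matched an Ensembl identifier among the 60617 gene entries of the table. RNA-seq was done on SKNMC, an established human Ewing sarcoma cell line, a tumour type driven by a fusion of EWSR1 with an ETS factor gene. Cells were kept for 24 h with 1 µM CBL0137 (n = 2 libraries) or with the DMSO vehicle alone (n = 2 libraries). CBL0137 is a curaxin, a DNA-binding compound that traps the histone chaperone FACT on chromatin, and the comparison asks which transcripts it raises or lowers relative to vehicle. All libraries come from 1 cell line at 1 dose and 1 time, and the labels do not name separate cultures, so a p-value here reflects only how far these libraries scatter, which may be technical scatter.

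Replication-dependent histone genes supply the bulk histones during DNA synthesis, and their mRNAs end in a conserved stem-loop in place of a poly(A) tail. Most variant genes are transcribed through the cell cycle and carry introns and poly(A) signals, and the variants give nucleosomes particular properties. H3.3 is laid down at active genes and at telomeric and pericentric repeats, H2A.Z marks promoter nucleosomes, H2AX is phosphorylated at DNA breaks, macroH2A carries a large macro domain and marks silent chromatin, and H1-10 is a divergent linker histone.

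The class to which a histone gene belongs can be read from the end of its transcript, and the stem-loops below show the 1 gene among the 9 variants that carries both a stem-loop and a poly(A) signal. The 16-base histone 3' stem-loop motif was searched on the transcript strand of the canonical transcripts of GENCODE release 44 mapped to GRCh37. It was found in 64 of 64 replication-dependent histone genes and in 1 of the 9 variant genes, H2AX, against 0.695% of 19426 protein-coding transcripts. In H2AX it lies at chr11:118965603-118965628 (GRCh37, minus strand, flanks included), 52 bases past the coding sequence, and another 1024 bases of transcript follow it. In the replication-dependent genes H2AC11, H2BC11 and H4C8, shown for comparison, 5 bases follow it. Capitals mark the motif.
H2AX: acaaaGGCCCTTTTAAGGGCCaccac
H2AC11: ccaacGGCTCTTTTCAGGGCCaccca
H2BC11: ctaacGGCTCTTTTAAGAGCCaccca
H4C8: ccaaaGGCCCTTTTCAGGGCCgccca
A poly(A) signal, AATAAA or ATTAAA, stood in the last 50 bases of the canonical transcript in 7 of the 9 variant genes, all but H2AZ2 and MACROH2A1. The same letters stood there in 4.69% of the replication-dependent genes and in 78.5% of the protein-coding transcripts.

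The promoters of the genes with the highest and lowest fold change, H2AJ and H2AZ1, are printed with those of H2AX and H3-3B. Each is the 250 bases before a start site in the RefSeq promoter table for GRCh38.p14, placed on GRCh37 by an exact match to a single position. They lie at chr4:100871433-100871682 for H2AZ1, chr11:118966176-118966425 for H2AX, chr12:14927089-14927338 for H2AJ and chr17:73775861-73776110 for H3-3B. All but that of H2AJ, on the plus strand, are on the minus strand. The H2AZ1 and H3-3B windows reach into or lie within the gene's full span, since longer transcripts start upstream. Capitals mark CCAAT on either strand (ATTGG when reversed) and TATAAA, motifs that do not overlap here.
H2AZ1: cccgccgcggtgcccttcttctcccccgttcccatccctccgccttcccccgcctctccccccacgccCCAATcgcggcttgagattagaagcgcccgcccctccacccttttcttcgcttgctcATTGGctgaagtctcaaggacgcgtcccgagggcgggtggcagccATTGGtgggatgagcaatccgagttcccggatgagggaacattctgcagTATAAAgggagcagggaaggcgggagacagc
H2AX: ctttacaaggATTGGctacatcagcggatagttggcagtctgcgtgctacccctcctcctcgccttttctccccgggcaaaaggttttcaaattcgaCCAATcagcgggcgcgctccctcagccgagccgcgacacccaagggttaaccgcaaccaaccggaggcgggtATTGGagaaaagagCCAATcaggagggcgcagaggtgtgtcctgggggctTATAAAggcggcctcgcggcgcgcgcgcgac
H2AJ: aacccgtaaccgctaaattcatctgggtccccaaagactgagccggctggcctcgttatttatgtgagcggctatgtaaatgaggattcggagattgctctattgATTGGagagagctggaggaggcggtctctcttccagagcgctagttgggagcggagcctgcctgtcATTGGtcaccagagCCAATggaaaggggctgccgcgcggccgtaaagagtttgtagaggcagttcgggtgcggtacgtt
H3-3B: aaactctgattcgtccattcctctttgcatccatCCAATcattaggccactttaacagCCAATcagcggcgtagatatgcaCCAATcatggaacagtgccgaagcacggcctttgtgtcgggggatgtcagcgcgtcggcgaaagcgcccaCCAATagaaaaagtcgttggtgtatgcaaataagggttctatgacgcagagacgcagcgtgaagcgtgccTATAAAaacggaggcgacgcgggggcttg
H2AZ1 and H2AJ have 3 CCAAT matches each, and H2AX and H3-3B have 4. Such a window with 3 or more makes up 2.93% of the 35116 entries of the promoter table, and 32% hold at least 1. TATAAA starts 31 bases before the start site in H2AZ1 and H2AX and 29 bases before it in H3-3B, and is not in the H2AJ window; 10.7% of entries hold it on either strand. Of the 9 genes, 7 had CCAAT and 4 had TATAAA in at least 1 of their 13 entries. The count-based estimates below are lower with CBL0137 for H2AZ1 and H2AX and higher for H2AJ and H3-3B. Of these, only H2AZ1 and H2AJ were called. The part of these letters in the estimates was not tested. A match is a string of letters, not a bound site.

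Across the 9 genes, H2AJ rose and H2AZ1 fell, and the other 7 did not pass both limits of the test. A call needed both an adjusted p under 0.05 and a fold over 1.5, that is 0.58 in size on the log2 scale (edgeR quasi-likelihood test on counts, Benjamini-Hochberg adjustment over all 17374 genes tested). All 9 passed the low-count filter. Over all tested genes 18.2% were called higher, 15.1% lower and 33.4% in either direction, so the variants' 1 of 9 in each direction is near the background. With the adjusted p alone, 3 of the 9 were higher, 5 were lower and 1 was neither, against 30.8% higher, 30.9% lower and 61.7% in either direction over all genes. In 8 of the 9, the libraries of the groups did not overlap in CPM (counts scaled to library size), 3 with CBL0137 above and 5 below, against 79.9% of all tested genes, 40.7% above and 39.2% below. All of the 9 but H2AJ have an average log2 CPM of at least 5. Among the 6664 tested genes at that level, 8.27% were called higher and 15.4% lower, and by the adjusted p alone 30.5% were higher and 45.7% lower. The median log2 fold change was -0.27 for the 9 genes and 0.01 over all genes. CPM here use TMM factors and are shares of the sequenced RNA, so fewer cells and less RNA per cell cannot be told apart.

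**Figure D1:**
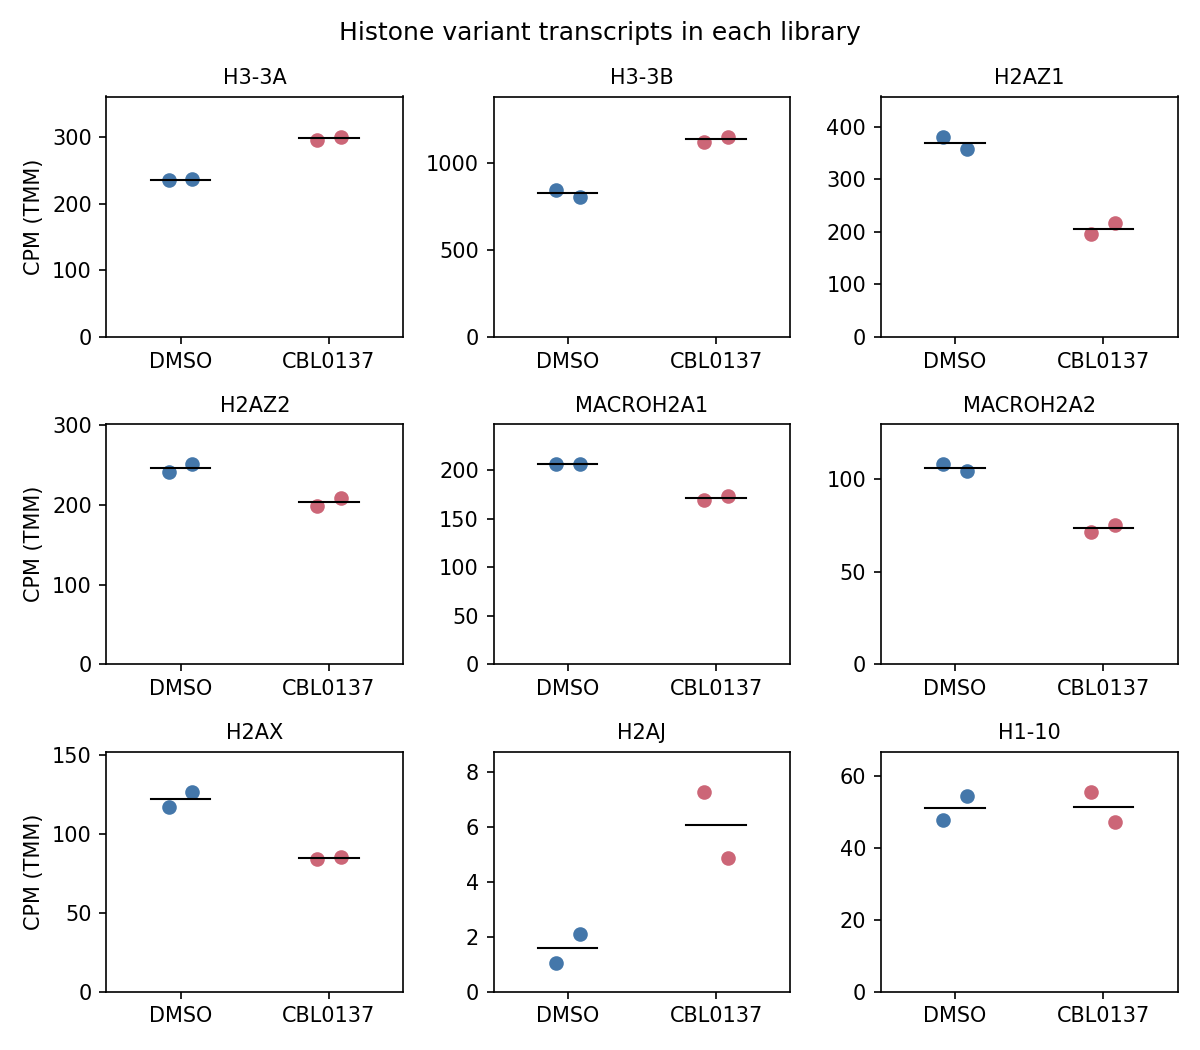
CPM (vertical axis, linear and from 0, scaled for each gene) of the 9 histone variant genes in each library, with DMSO in blue and CBL0137 in red; each point is 1 library and each bar a group mean (n = 2). H2AZ1 is lower and H2AJ higher in both treated libraries, and H1-10 is the 1 gene whose groups overlap.

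H3.3 is encoded by H3-3A (ENSG00000163041, chr1:226249552-226259720, plus strand) and H3-3B (ENSG00000132475, chr17:73772515-73781974, minus strand). Their coding sequences are 408 bases each, differ at 88 bases (78.4% identity) and encode proteins that differ at 0 amino acids. H3-3A stood at 235 and 237 CPM in the DMSO libraries and at 296 and 301 CPM in the CBL0137 libraries. H3-3B, the more abundant in reads, stood at 843 and 805 CPM with DMSO and at 1118 and 1149 CPM with CBL0137. Both treated libraries lay above both vehicle libraries for each gene. The log2 fold change was 0.34 (SE 0.05, edgeR adjusted p = 3e-07) for H3-3A and 0.46 (SE 0.05, edgeR adjusted p = 5e-10) for H3-3B, both below the fold limit. With library size alone as the scaling, under which the median over all genes shifted by 0.16 on the log2 scale, H3-3B reached 0.62 and was called.

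Summed over both genes, H3.3 transcripts went from 1060 ± 25.2 CPM (SD, n = 2) with DMSO to 1432 ± 25.8 CPM (SD, n = 2) with CBL0137, a difference of 35.1% of the vehicle level. In the deposited FPKM, reads per length and depth, the sum differed by 43.5%. H3-3A supplied 21.8% and 22.7% of the pair's reads with DMSO and 20.9% and 20.8% with CBL0137. Within a library this ratio does not depend on the scaling, and as log2 (H3-3A over H3-3B) it was -1.81 ± 0.06 (SD, n = 2) with DMSO and -1.93 ± 0.01 (SD, n = 2) with CBL0137. The difference of -0.12 gave p = 0.333 in an exact two-sided permutation test, the smallest p that 2 libraries against 2 allow, so this design could not reach 0.05. A processed copy of H3-3A, the pseudogene H3P6, was counted with 1086 and 1027 reads in DMSO and 1543 and 1615 in CBL0137, and some of these reads may belong to H3-3A. Its log2 fold change of 0.35 was near that of H3-3A.

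None of the 7 genes listed for H3.3 deposition, the HIRA complex subunits HIRA, UBN1, UBN2 and CABIN1, the chaperone ASF1A, and DAXX with ATRX, was called in either direction. With the p alone, adjusted or unadjusted, under 0.05, 2 were higher and 3 lower, and DESeq2 and limma also called 0. Over all tested genes 33.4% were called in either direction, and by the adjusted p alone 30.8% were higher and 30.9% lower. The median log2 fold change was -0.15, and the values ran from -0.31 to 0.50. ATRX, the remodeller that works with DAXX at repeats, stood at 269 and 279 CPM with DMSO and at 230 and 229 CPM with CBL0137 (log2 fold change -0.26, SE 0.05, edgeR adjusted p = 3.9e-05). As with MACROH2A1 below, the ATRX value shrank with limma on log2(FPKM + 1) (-0.02, adjusted p = 0.845) and with library size alone (-0.10, edgeR adjusted p = 0.0907).

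H2A.Z is encoded by H2AZ1 (ENSG00000164032, chr4:100869243-100871512, minus strand) and H2AZ2 (ENSG00000105968, chr7:44866390-44887686, minus strand), whose proteins differ at 3 amino acids by translation of their 384-base coding sequences. H2AZ1 stood at 381 and 358 CPM (7216 and 6667 reads) in the DMSO libraries and at 195 and 216 CPM (4291 and 4788 reads) in the CBL0137 libraries. Both treated libraries were far below both vehicle libraries. H2AZ1 fell by 0.85 on the log2 scale (SE 0.06, edgeR adjusted p = 4.9e-17), 1.8-fold. H2AZ2 stood at 241 and 251 CPM with DMSO and at 198 and 208 CPM with CBL0137. Its groups did not overlap either, but the difference was smaller, at -0.28 on the log2 scale (SE 0.05, edgeR adjusted p = 1.7e-05), below the fold limit.

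The pair came to nearly equal read numbers in treated cells. H2AZ1 held 61.3% (95% Wilson interval 60.4 to 62.2) and 58.8% (57.9 to 59.7) of the pair's reads with DMSO, and 49.7% (48.6 to 50.7) and 51% (50 to 52) with CBL0137. These intervals cover counting error only. As a log2 ratio of H2AZ1 to H2AZ2 the values were 0.66 and 0.52 with DMSO and -0.02 and 0.06 with CBL0137. The difference was -0.57, a 1.48-fold shift, and the exact permutation p was again 0.333. H2A.Z transcripts as a whole went from 615 ± 9.49 CPM (SD, n = 2) to 409 ± 21.9 CPM (SD, n = 2), a difference of -33.6%. In FPKM the sum differed by -36.2%.

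**Figure D2:**
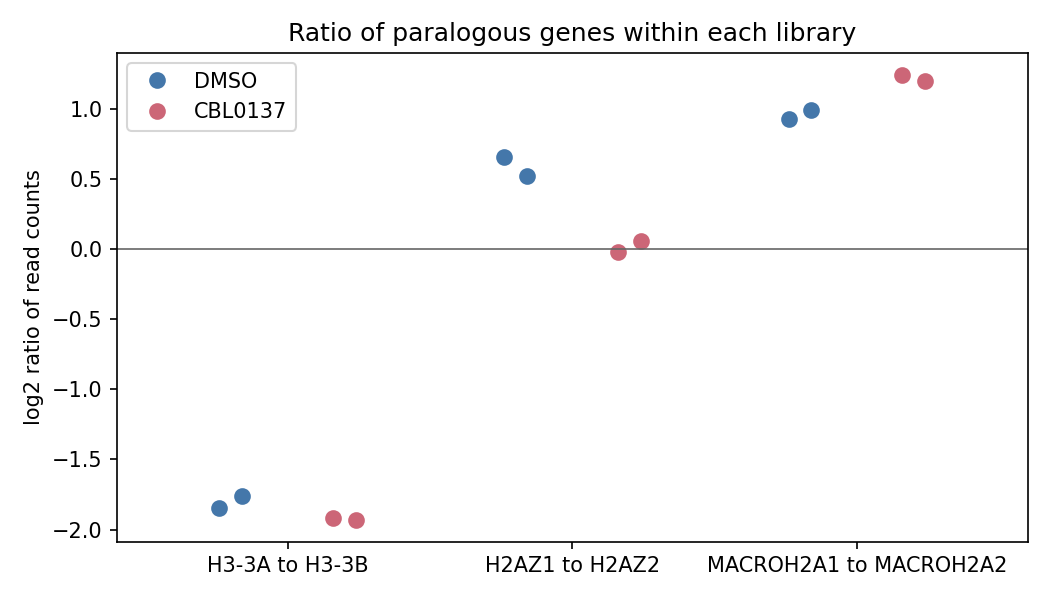
The log2 ratio of read counts (vertical axis) between the genes of each paralogous pair, 1 point per library, DMSO in blue and CBL0137 in red. The H2AZ1 to H2AZ2 ratio goes from 0.66 and 0.52 to -0.02 and 0.06, a wider gap than in the other pairs, whose differences are -0.12 (H3-3A to H3-3B) and 0.26 (MACROH2A1 to MACROH2A2).

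Of 18 genes that place or remove H2A.Z, subunits of the SRCAP and p400/TIP60 complexes with INO80, ANP32E and NAP1L1, 2 fell, 1 rose and 15 did neither (median log2 fold change -0.31). With the adjusted p alone, 10 were lower and 4 higher. The background for calls was 15.1% lower and 18.2% higher, and by adjusted p 30.9% and 30.8%. At a log2 CPM of 5 or more, which most of the 18 reach, it was 15.4% and 8.27%, and by adjusted p 45.7% and 30.5%. Whether the list departs from these shares was not tested. YEATS4, a YEATS-domain subunit shared by both complexes, stood at 75.2 and 71.8 CPM with DMSO and at 26 and 31 CPM with CBL0137. It fell by 1.36 on the log2 scale (SE 0.08, edgeR adjusted p = 4.1e-19). RUVBL1, an AAA+ ATPase of these and other complexes, stood at 399 and 380 CPM and then at 193 and 211 CPM, and fell by 0.95 (SE 0.05, edgeR adjusted p = 8.9e-19). ZNHIT1, a SRCAP subunit, went the other way, from 57.1 and 46.8 CPM to 82.3 and 83.8 CPM. It rose by 0.68 (SE 0.07, edgeR adjusted p = 4.9e-11), a call that was lost without DMSO replicate 2 (0.53). NAP1L1, a chaperone of H2A-H2B and H2A.Z-H2B dimers and the most abundant of the uncalled genes, stood at 1185 and 1141 CPM with DMSO and at 828 and 830 CPM with CBL0137. Its log2 fold change of -0.49 was below the fold limit, and reached -0.78 and a call with the deposited FPKM values.

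MACROH2A1 (ENSG00000113648, chr5:134670071-134735604, minus strand) and MACROH2A2 (ENSG00000099284, chr10:71812300-71872038, plus strand) encode the macro domain variants. MACROH2A1 stood at 206 CPM in both DMSO libraries and at 169 and 173 CPM in the CBL0137 libraries, or -0.27 on the log2 scale (SE 0.05, edgeR adjusted p = 2.2e-05). MACROH2A2 stood at 108 and 104 CPM with DMSO and at 71.6 and 75.1 CPM with CBL0137, or -0.53 on the log2 scale (SE 0.06, edgeR adjusted p = 3.4e-10). For each gene the treated libraries lay below the vehicle libraries, and neither passed the fold limit. The lower value of MACROH2A1 depended on the unit and the scaling. It was -0.05 with limma on log2(FPKM + 1) (adjusted p = 0.552) and -0.11 with library size alone (edgeR adjusted p = 0.0576). The log2 ratio of MACROH2A1 to MACROH2A2 was 0.93 and 0.99 with DMSO and 1.24 and 1.20 with CBL0137, a difference of 0.26 (exact permutation p = 0.333), and was 0.39 when taken from FPKM. The summed macroH2A transcripts went from 312 ± 2.62 CPM to 244 ± 5.07 CPM (SD, n = 2 each), a difference of -21.7%. In FPKM the sum differed by -14.1%.

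H2AX (ENSG00000188486, chr11:118964584-118966175, minus strand), whose tail is phosphorylated around DNA breaks to give gamma-H2AX, stood at 117 and 127 CPM with DMSO. With CBL0137 it stood at 84.4 and 85.8 CPM, below both vehicle libraries. The log2 fold change was -0.52 (SE 0.06, edgeR adjusted p = 2.7e-10), 1.44-fold lower and just inside the fold limit. Without DMSO replicate 1 it reached -0.60 and was called. These are transcript levels, and phosphorylation of the protein was not measured.

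Among 15 tested genes of H2AX phosphorylation and its readout, 3 fell, 0 rose and 12 were not called. With the p alone, adjusted or unadjusted, 7 were lower and 5 higher, DESeq2 and limma also called 0 higher, and the median log2 fold change was -0.10. The background for calls was 15.1% lower and 18.2% higher, and by adjusted p 30.9% and 30.8%. At a log2 CPM of 5 or more, which all of the 15 but EYA1 reach, it was 15.4% and 8.27%, and by adjusted p 45.7% and 30.5%. Whether the list departs from these shares was not tested. NBN, the NBS1 subunit of the MRN complex, stood at 165 and 167 CPM with DMSO and at 68.8 and 77 CPM with CBL0137, and fell by 1.19 on the log2 scale (SE 0.06, edgeR adjusted p = 6.6e-21). PRKDC, the DNA-PK catalytic subunit and one of the kinases that phosphorylate H2AX, stood at 2631 and 2814 CPM and then at 1623 and 1634 CPM. It fell by 0.74 (SE 0.05, edgeR adjusted p = 2.4e-15), with the fold limit missed under library size alone (-0.58). EYA1, a tyrosine phosphatase of H2AX, stood at 11.6 and 14 CPM and then at 9.06 and 7.95 CPM. At -0.59 on the log2 scale (SE 0.14, edgeR adjusted p = 0.00032) it was at the limit and lost its call without DMSO replicate 2 (-0.47) or CBL0137 replicate 2 (-0.50), and under upper-quartile scaling, library size alone, the stricter filter and log2(FPKM + 1). BAZ1B, the kinase of the same tyrosine of H2AX and the most abundant of the uncalled genes, was at -0.29 on the log2 scale (SE 0.05), and at -0.18 with limma on log2(FPKM + 1) (adjusted p = 0.0562).

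H2AJ (ENSG00000246705, chr12:14927339-14930936, plus strand), an H2A variant known to accumulate in senescent fibroblasts, had the fewest reads of the 9 genes. Its counts were 20 and 39 reads in the DMSO libraries and 160 and 108 reads in the CBL0137 libraries. These are 1.06 and 2.1 CPM against 7.28 and 4.88 CPM, with no overlap between groups but a wide spread within each. H2AJ rose by 1.95 on the log2 scale (SE 0.27, edgeR adjusted p = 3.5e-08), 3.85-fold. The value ran from 1.52 without DMSO replicate 1 to 2.50 without DMSO replicate 2. Even after the increase H2AJ held a small share of the variant transcripts, 5.77 ± 1.8 FPKM (SD, n = 2), where FPKM are the deposited reads per length and depth. H4C16, a replication-dependent H4 gene near H2AJ on chromosome 12, stood at 2.11 and 1.18 CPM with DMSO and 4.37 and 3.52 CPM with CBL0137, and rose by 1.25 (SE 0.28, edgeR adjusted p = 0.00018). It was looked up for its position after its value was seen.

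H1-10 (ENSG00000184897, chr3:129033614-129035129, minus strand) stood at 47.9 and 54.5 CPM with DMSO and at 55.7 and 47.3 CPM with CBL0137. The groups overlapped fully. The log2 fold change was 0.01 (SE 0.08, edgeR adjusted p = 0.936), and the interval of 1.96 SE on either side, -0.14 to 0.16, lay inside the fold limit. Of 12 further replication-independent variants, 2 had enough reads to be tested and 6 had none in any library. Of the latter, H2AB1, H2AB2 and H2AB3 had deposited FPKM above 0 in every library (H2AB2 0.149 to 0.395), so their counts do not show absence. Neither of the 2 tested had an adjusted p under 0.05. One was CENPA, the centromeric H3 variant, at 35.9 and 40.6 CPM with DMSO and 35.7 and 35.9 CPM with CBL0137 (log2 fold change -0.10, edgeR adjusted p = 0.303). The sign of the CENPA value turned with library size alone (0.06).

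Levels of different genes can be compared per length, on the FPKM scale. With DMSO the order of mean FPKM was H2AZ1 (603), H3-3B (207), H3-3A (181), H2AZ2 (111), H1-10 (55.2), H2AX (53.7), MACROH2A1 (41.1), MACROH2A2 (35.8) and H2AJ (1.34). H1-10 and H2AX overlapped, at 52.4 and 58 against 51.5 and 55.8 FPKM, and the other neighbours in this order did not. With CBL0137 the order was the same, at 358, 303, 252, 97.9, 57.6, 39.9, 39.7, 26.3 and 5.77 FPKM. There H2AX and MACROH2A1 overlapped, at 39.7 and 40.2 against 38.7 and 40.6 FPKM, and the other neighbours did not. On this scale H2AZ1 stood far above H3-3B in vehicle cells and nearer to it in treated cells. Summed over the 9 genes, the level was 2163 ± 25.1 CPM with DMSO and 2228 ± 46.1 CPM with CBL0137 (SD, n = 2 each), a difference of 2.99%. In FPKM, which weights short transcripts more, the sum differed by -8.38%, so its sign depended on the unit.

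**Figure D3:**
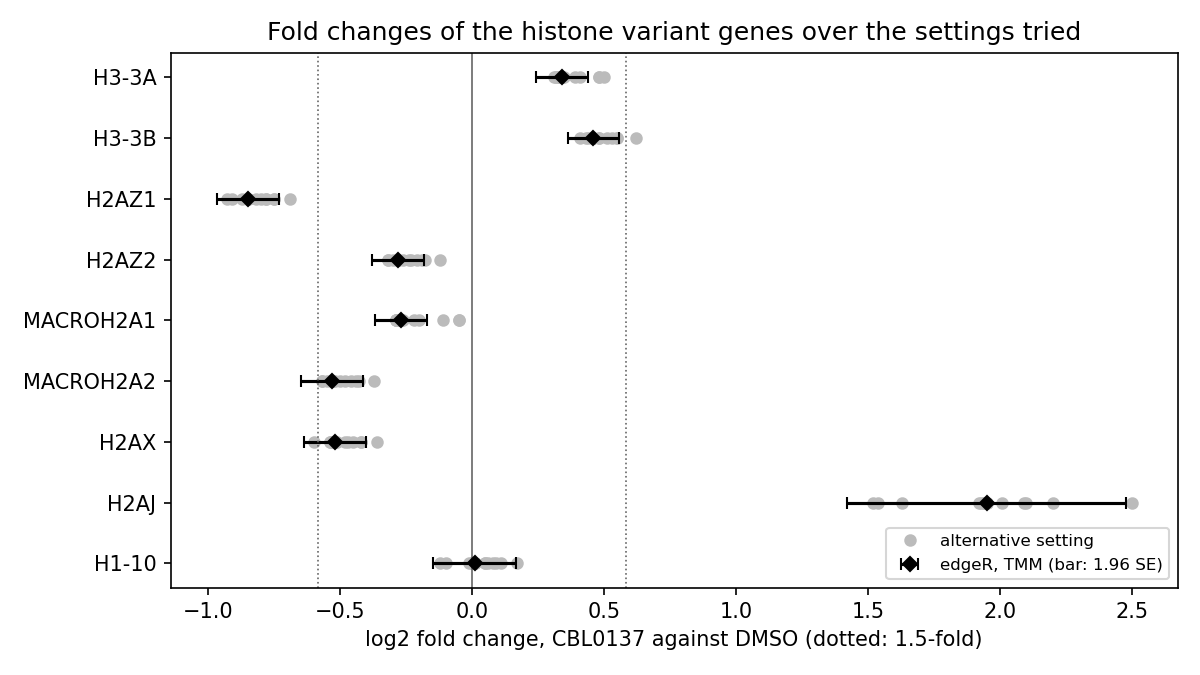
The log2 fold change (horizontal axis) of each variant gene by the edgeR test with TMM scaling (black diamond, bar of 1.96 SE on either side) and under each alternative setting (grey points), with dotted lines at 1.5-fold. H2AZ1 and H2AJ lie beyond the lines throughout, and H1-10, from -0.12 to 0.17, is the 1 gene whose grey points fall on both sides of 0.

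The replication-dependent genes, of which 64 are in the table, had a far lower summed level than the variants. Over all 64 it was 38.4 and 37.6 CPM with DMSO and 73.8 and 74.2 CPM with CBL0137, though several exceeded H2AJ singly. Of the 64, 21 passed the low-count filter and were tested. Of the 21, 13 rose and 2 fell, with a median log2 fold change of 1.02. The filter asks for enough reads in only as many libraries as a group holds, so a gene can pass through 1 group alone. H2AC25 (4 and 9 reads with DMSO, 118 and 69 with CBL0137) passed through the treated libraries, as did H2BC6, H4C9 and H4C14. H1-4 (17 and 17 reads, then 8 and 5) passed through the vehicle libraries. The counts of 13 and 2 and the median rest in part on such genes. The variants had 1 and 1 of 9, and over all tested genes 18.2% were called higher and 15.1% lower. The difference between these shares was not tested. Abundance also differed, since no tested replication-dependent gene had an average log2 CPM above 2.94. All variants but H2AJ were at 5 or more, where 8.27% of genes were called higher. The count of 13 was 8 with log2(FPKM + 1) and 6 with a filter of at least 1 CPM in every library. H2BC11, an H2B gene, stood at 1.48 and 1.24 CPM with DMSO and at 4.6 and 6.01 CPM with CBL0137, and rose by 1.96 (SE 0.26, edgeR adjusted p = 2.3e-08). H4C8 stood at 1.11 and 0.913 CPM and then at 4.28 and 3.66 CPM, and rose by the same 1.96 (SE 0.30, edgeR adjusted p = 3.9e-07). The sources used here do not give whether polyadenylated RNA was selected, so these reads may cover tailed forms only. Members of this family are near-identical. Reads without a unique alignment, 6.91% to 7.13% per library, were assigned to no gene. H2AC17, for one, had 0 reads in every library but deposited FPKM of 0.45 to 2.48. The summed level of these genes in counts may thus be too low.

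Genes of histone mRNA 3' end processing did not show calls in the higher direction. Of 11 tested, 0 rose, 2 fell and 9 did neither (median log2 fold change -0.29). The background was 18.2% higher and 15.1% lower in the full test. It was 8.27% and 15.4% at a log2 CPM of 5 or more, which most of the 11 reach. With the p alone, adjusted or unadjusted, 3 were higher and 7 lower, and DESeq2 and limma also called 0 higher. The background by adjusted p was 30.8% and 30.9%, and 30.5% and 45.7% at that level. Whether the list departs from these shares was not tested. CPSF2, a subunit of the cleavage factor shared with poly(A) processing, stood at 201 and 199 CPM with DMSO and at 117 and 119 CPM with CBL0137, and fell by 0.76 (SE 0.05, edgeR adjusted p = 5e-16). LSM10, part of the U7 snRNP that directs cleavage after the stem-loop, stood at 40 and 36.2 CPM and then at 22.9 and 24.9 CPM, and fell by 0.67 (SE 0.09, edgeR adjusted p = 9e-09). Each call was lost under 1 setting, CPSF2 with log2(FPKM + 1) (-0.56) and LSM10 with library size alone (-0.51), apart from the limit of a fold above 2. CASP8AP2, needed for histone gene transcription and the most abundant of the uncalled genes, was at -0.35 on the log2 scale (SE 0.06), and at -0.08 with limma on log2(FPKM + 1) (adjusted p = 0.514).

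**Figure D4:**
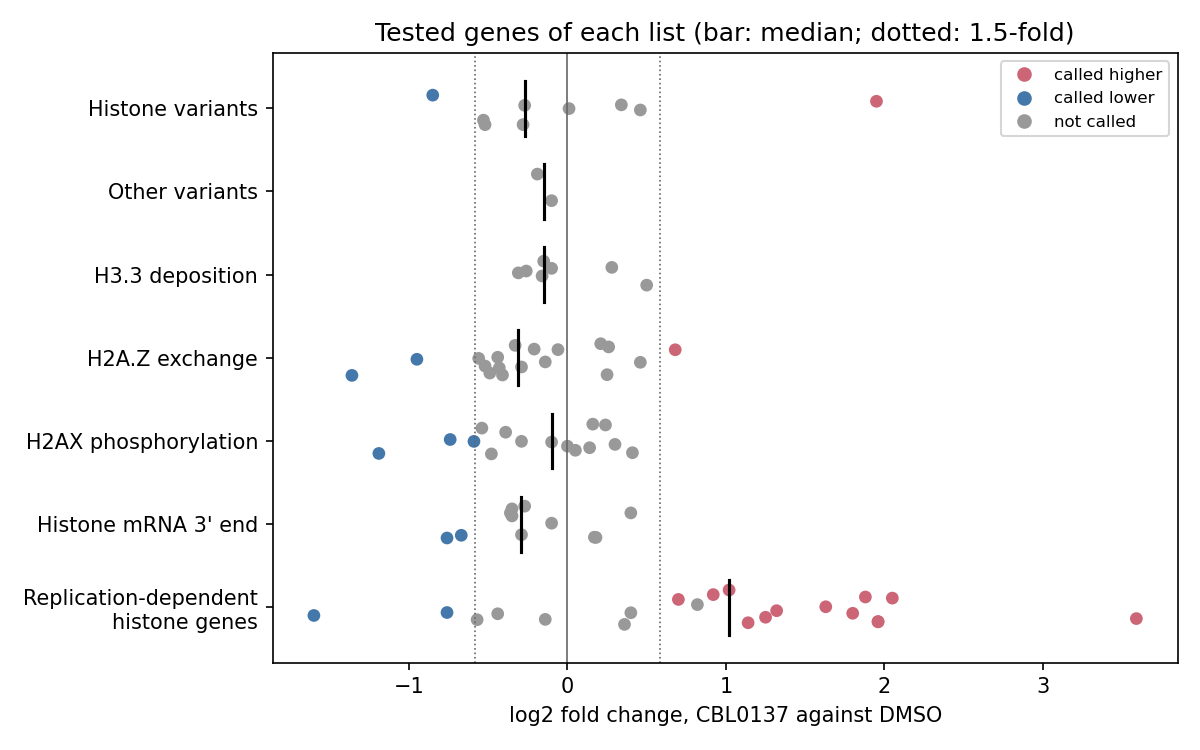
The log2 fold change (horizontal axis) of every tested gene of the 9 variants and of the 6 other gene lists, 1 point per gene, red when called higher, blue when called lower and grey when not called; black bars are medians and dotted lines 1.5-fold. The replication-dependent histone genes have their median at 1.02, and the other 6 groups have medians between -0.31 and -0.10. Some replication-dependent genes passed the low-count filter only through the reads of 1 group, mostly CBL0137.

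By the distance between centred log2 CPM profiles over the 4 libraries, the genes most like H2AZ1 among 6663 well-expressed ones were CCT6A (distance 0.0258, log2 fold change -0.84), RPSA (0.0283, -0.83) and EI24 (0.0329, -0.87). Those most like H2AJ were KLHL24 (distance 0.703, log2 fold change 1.88), MICAL1 (0.705, 1.64) and GOLGB1 (0.709, 1.61). The far larger distances for H2AJ go with the spread between its own replicates. Likeness over 4 libraries in 2 groups mostly reflects the size of the group difference.

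Several measures moved with the groups and touch these genes. Tested genes were split into 5 equal bins by the GC content of the transcript. In the highest bin (58.1 to 75.6%) 31.5% were called higher and 8.51% lower, and in the next to lowest bin (40.9 to 45.6%) 12% and 18.9%. H2AJ (63.1% GC), H2AX (66.8%) and H1-10 (68.6%) lie in the former, and H2AZ1 (44.7%), H2AZ2 (43.4%), H3-3A (42.8%) and H3-3B (43.1%) in the latter. MACROH2A1 (51.1%) lies in the middle bin, with 16% called higher and 16.1% lower. MACROH2A2 (52.9%) lies in the next to highest bin, with 22.8% and 12.5%. H2AX, MACROH2A2 and the H3.3 genes thus have estimates opposite to the more frequent direction of their bin, and H2AJ, H2AZ1 and H2AZ2 the same direction. The part of GC content in these results was not tested. Antisense partners share exon sequence with some of these genes, and the sources used here do not give the strand setting of the counting. H1-10-AS1 (25 and 28 reads with DMSO, 111 and 99 with CBL0137) overlaps H1-10 by 345 bases, and H2AZ1-DT (11 and 11 reads, then 39 and 47) overlaps H2AZ1 by 223 bases. Both rose, by 1.75 (SE 0.26, edgeR adjusted p = 2.6e-07) and 1.72 (SE 0.42, edgeR adjusted p = 0.00042) on the log2 scale, from counts far below those of their partners. MACROH2A1 shares 4706 bases with PITX1-AS1, which has under 70 reads in each library, MACROH2A2 986 bases with AIFM2, and H3-3B 179 bases with UNK. H3-3A shares 48 bases with H3-3A-DT, which has 6 to 31 reads. UNK (1189 and 1020 reads with DMSO, 1674 and 1789 with CBL0137) was at 0.42 (SE 0.07, edgeR adjusted p = 1.1e-06), below the fold limit. PITX1-AS1 rose by 0.91 (SE 0.32), and H3-3A-DT (0.93, SE 0.47) and AIFM2 (-0.08, SE 0.16) were not called. The part of these overlaps in the estimates was not tested. H2AX, H2AZ2 and H2AJ overlap no other annotated exon.

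The libraries held between 19625517 and 21061892 reads assigned to genes. Reads in no annotated gene were 8.52% and 8.82% with DMSO and 10.3% and 10.2% with CBL0137, and reads in overlapping genes 9.34% and 9.27% against 8.75% and 8.78%. Both measures separated the groups, and their part in the results was not tested. All 9 Ewing sarcoma markers listed were tested, and their summed level was 1793 CPM in both DMSO libraries and 1190 and 1257 CPM in the CBL0137 libraries. Of the 9, 4 fell, PRKCB (-1.18 on the log2 scale), BCL11B (-0.93), CD99 (-0.69) and NR0B1 (-0.67), and 5 were not called. The latter were STEAP1 at -0.24, EWSR1 at -0.18, FLI1 at 0.02, NKX2-2 at 0.23 and LIPI at 0.35. By the adjusted p alone, 6 of the 9 were lower and 2 higher, against 30.9% and 30.8% over all tested genes. Of 11 markers of other cell types 6 were tested. The muscle marker MYOG was at 0 in every library, and the T cell marker CD3E and the macrophage marker CD68 had 1 read each in all 4 libraries together, although CD68 had deposited FPKM of 0.372 to 0.754, so its count does not show absence. The markers' summed level was 297 and 289 CPM with DMSO and 596 and 586 CPM with CBL0137. Most of it came from COL1A1, a fibroblast collagen (127 and 119 CPM, then 471 and 441 CPM), and the leukocyte gene PTPRC (162 and 162 CPM, then 107 and 124 CPM). Of the 6 tested, 5 rose, against 18.2% called higher over all tested genes. On the log2 scale they were PDGFRA (2.07), COL1A1 (1.89), KRT8 (1.44), EPCAM (1.42) and CDH5 (1.05). PTPRC was not called, at -0.49 (edgeR adjusted p = 1.4e-09), below the fold limit. The part of these marker levels in the results for the histone variants was not tested.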

How the data were processed

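RNA-seq covered 4 libraries of SKNMC cells, 2 with DMSO and 2 with CBL0137, grouped by the sample titles. The deposited table holds read counts per gene and FPKM values. Per the labels, adapter trimming by the authors used Trim Galore, alignment to hg19 used HISAT2 and the counts came from HTSeq 0.11.1. FPKM, also made by the authors, take gene length and depth into account, per the labels; they are no rescaling of the counts, since 5103 genes with 0 counts had FPKM above 0. The submitters' processing notes also name mm10, with no role. There were 60617 gene entries and 6 that name no gene, and these entered neither library sizes nor tests.

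The count test was edgeR 4.0.16's quasi-likelihood F test in R 4.3.3 (TMM, filterByExpr, default prior count), on all 4 libraries with no covariate. A prior count of 2 entered only the log2 CPM values used for profile distances and the replicate correlation. SE is the size of the estimate over the square root of its F value. Replicates differed by more than sampling noise (chi-square per degree of freedom 3.124 for DMSO and 2.819 for CBL0137) and were kept apart. The fit was also tested on simulated counts. Alternatives were DESeq2 1.42.0, limma 3.58.1 on log2(FPKM + 1) or log2(FPKM + 0.1), other scalings, filters and fold limits, a replicate block, leaving out each library and, for the variants, adding the reads of named pseudogenes. The genes and lists were chosen with earlier results of these data known. Genes named were the 9 variants, up to 4 called genes with the smallest p and the most abundant uncalled gene of each list, and the 3 nearest profiles of H2AZ1 and H2AJ; others were chosen after their values were seen, and not every gene the rule gives is described. From the list of 70 replication-dependent histone genes, 64 matched the table and the other 6 were not analysed here. One further histone gene is not reported here.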

Additional observations from a re-analysis of the deposited data

How the results depend on the processing

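Over 16 alternatives, H2AZ1 kept its direction in all and its call in 15, failing only a fold above 2, with values from -0.93 to -0.69. H2AJ kept its call in the 15 alternatives that tested it (1.52 to 2.50), and at least 1 CPM in every library left it untested. H1-10, not called, changed sign with no filter on low counts (-0.01), without DMSO replicate 1 (-0.10) and without CBL0137 replicate 1 (-0.12; leaving out 1 library gave -0.12 to 0.11), and CENPA with library size alone (0.06). Of the 9 variants, 2 were called higher with library size alone, 0 with the stricter filter and 3 with no fold limit; 0 were called lower with a fold above 2 and 5 with no fold limit, and leaving out 1 library gave 1 to 2. With no fold limit, the counts higher and lower became 2 and 3 for H3.3 deposition, 4 and 10 for H2A.Z exchange, 5 and 7 for H2AX phosphorylation, 3 and 7 for 3' end processing, and 5347 and 5375 over all genes. With a fold above 2 they were 0 and 1 for H2A.Z exchange, 1 lower for H2AX phosphorylation, 0 lower for 3' end processing, 1 lower for the replication-dependent genes, and 1988 and 1218 over all genes. Library size alone gave 1 H3.3 deposition gene higher, 2 H2A.Z exchange genes higher, 1 H2AX phosphorylation gene lower and 1 gene of 3' end processing lower, and 68.8% of all calls were then higher, against 54.6%. With log2(FPKM + 1) there were 8 replication-dependent genes higher and 0 lower, 1 gene of 3' end processing lower, and 1860 higher and 1363 lower over all genes; the MACROH2A1 to MACROH2A2 difference in FPKM was 0.39. The replication-dependent genes had 6 higher and 1 lower with the stricter filter, 1 lower with no filter or with log2(FPKM + 0.1), and 0 lower with DESeq2. Leaving out 1 library gave 0 to 1 of them lower and 0 to 1 H2A.Z exchange genes higher. Causes were not tested beyond the changed limit, filter or scaling. With the replicate number as a block, 3129 genes were called higher and 2612 lower, and the counts for the variants (1 and 1) and for each list were those without it. The deviations of same-numbered libraries correlated at -0.085 over 6664 genes. With 2 libraries per group this cannot settle whether the numbers mark pairs, and the labels do not say. H2AJ, with 20 to 160 reads, had an SE of 0.27, against 0.05 to 0.08 for the other 8 variants.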
